A study of Mus musculus with 8 samples.

Results

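The genes described here are 57 mouse genes of the G2 phase, of mitosis and of the mitotic spindle, taken by symbol from a list that runs from the CDK1 kinase and its cyclins to the proteins that cut the dividing cell apart. All 57 symbols were among the 24421 gene symbols of the files, and all 57 were abundant enough to be tested. They were followed through 8 RNA sequencing libraries of BMDM (bone marrow-derived macrophages, grown in a dish out of marrow cells), all collected after 24 h of interleukin 4 (IL-4), the cytokine of alternative activation. In 4 libraries, called CKO (replicates 2, 6, 7 and 8), the genotype is OPA1f/f; Lyz2-Cre, in which Cre recombinase made under the myeloid Lyz2 promoter acts on the floxed Opa1 gene. In the other 4, called FLOX (replicates 3, 4, 6 and 7), the genotype is OPA1f/f without the driver. OPA1, a GTPase, fuses inner mitochondrial membranes and shapes cristae, and the comparison asks what its loss does to macrophage transcription under IL-4. Floxed alleles and IL-4 are shared by both groups, and the Opa1 deletion, the driver itself and any unlabelled batch between the groups cannot be told apart. The labels give no age or sex of the mice, and do not say that each library is a mouse of its own. The p-values below thus cover nothing but the spread from library to library, which may be technical.

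Cells that pass from G2 into mitosis switch on a shared group of genes. CDK1 with cyclin A or B starts the process, the Aurora and Polo kinases and the kinesins build the spindle, the checkpoint proteins hold anaphase until every kinetochore is attached, and the anaphase-promoting complex then destroys cyclin B and securin. Their transcription is timed by the MuvB protein complex, which binds the cell cycle homology region of their promoters, together with MYBL2 and FOXM1, while in resting cells the same complex joined to a pocket protein keeps them off. Cultured macrophages can still divide when a growth factor such as M-CSF is present.

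The labels were checked first. Opa1 itself had 94.6, 98.6, 105 and 103 CPM (counts scaled to library size by TMM factors) in CKO replicates 2, 6, 7 and 8, against 104, 114, 108 and 130.4 CPM in FLOX replicates 3, 4, 6 and 7. The ranges overlap, since CKO replicate 7 lies above FLOX replicate 3, and the log2 fold change of -0.19 (SE 0.074) missed the threshold in edgeR's quasi-likelihood test with Benjamini-Hochberg adjustment over 11519 genes (adjusted p = 0.0544). Gene totals do not resolve the floxed exons, so this level does not measure deletion. Lyz2, the locus that carries the driver, averaged 2030.5 ± 251 CPM in the CKO libraries and 7439 ± 597 CPM in the FLOX libraries (SD, n = 4 each), a log2 fold change of -1.87 (SE 0.095, adjusted p = 1.05e-07), and the 4 CKO libraries were all below the 4 FLOX libraries. The extraction protocol speaks of islets, yet the 5 islet hormone genes Ins1, Ins2, Gcg, Sst and Iapp had 0 counts in all 8 libraries. Macrophage markers were abundant: 9 of them summed to 5308 to 5966 CPM in CKO and 6468 to 6678 CPM in FLOX. Of these, 3 were lower in CKO and 1 was higher. Adgre1, which was not called, averaged 1170.2 ± 28.1 CPM in CKO libraries, against 1167 ± 19.1 CPM in FLOX libraries. Assigned read pairs per library ran from 11764855 (CKO replicate 2) to 15592868 in CKO and from 13770002 to 18939948 (FLOX replicate 6) in FLOX.

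Nearly the whole group was higher in CKO. At an adjusted p below 0.05, 53 of the 57 genes (93.0%) were higher in CKO and 1 was lower, where 23.8% of all 11519 genes tested were higher, 21.6% were lower and 45.4% were called in all. The exception that fell is Cenpa, the centromeric histone, and the 3 genes not called either way are Ccnb2 (cyclin B2), Pttg1 (securin) and Aspm (a spindle pole protein). Adjusted p-values of the 53 genes lay between 1.63e-06 (Kif4) and 0.0127 (Bub3). The median log2 fold change over the 57 was 0.80, a fold of 1.74, against -0.02 over all genes tested. The quartiles were 0.62 and 0.97, and 46 of the 57 lay between 0.5 and 1.1. A rise of more than 2-fold was called for 12 genes, where 4.67% of all genes had one. In 54 of the 57 the lowest library of one group stood above the highest of the other, 53 of them with CKO on top. Among all genes 42.7% had ranges apart in either direction and 22.7% had them apart with CKO on top. Since the members were taken with earlier results of these data known, these shares describe the list and are no independent test of it.

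**Figure D1:**
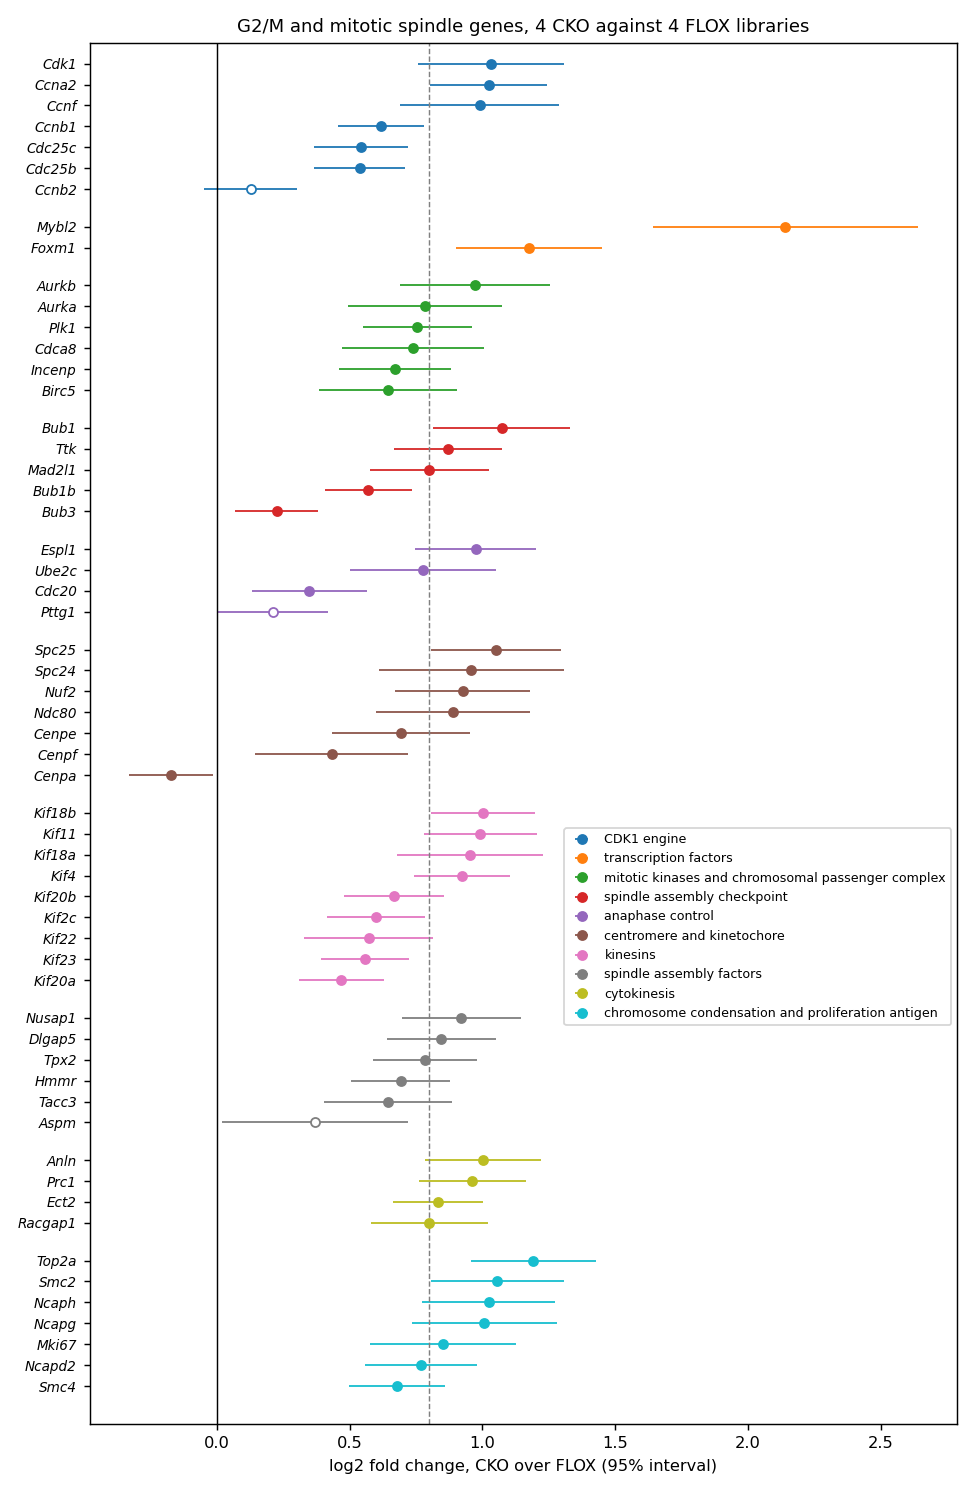
Log2 fold change of each of the 57 genes, CKO over FLOX, with its 95% interval from edgeR (4 CKO and 4 FLOX libraries), grouped and coloured by role; filled points passed the adjusted p of 0.05, open points did not, and the dashed line is the median of 0.80. Mybl2 lies farthest right at 2.14, Cenpa alone lies below 0 among the called genes at -0.17, and the 3 open points are Ccnb2, Pttg1 and Aspm.

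These are bulk libraries, so a larger share of dividing cells and more of these transcripts per dividing cell cannot be told apart. Summed over the 57 genes, the level was 7681, 8925, 8634 and 8701 CPM in CKO replicates 2, 6, 7 and 8, against 4671, 4477, 5512 and 5011 CPM in FLOX replicates 3, 4, 6 and 7. CKO replicate 2 was the lowest of its group and FLOX replicate 6 the highest of its own, and the 2 groups stayed apart. The sums averaged 8485 ± 550.5 CPM in CKO, against 4918 ± 454 CPM in FLOX, a ratio of 1.73, and the mean log2 CPM over the genes, which weighs them equally, was higher by 0.79. As a share of assigned counts the genes took 0.779% to 0.931% of a CKO library and 0.430% to 0.539% of a FLOX library. Mki67 and Top2a alone made up 22.4% of the summed level in CKO and 19.6% in FLOX.

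Other features of the libraries moved with the genotype. The 20 most abundant genes held 9.88% to 11.1% of a CKO library's counts and 12.6% to 13.7% of a FLOX library's, and scaling by library size alone, without TMM factors, raised the median of all genes by 0.10. Of the 5231 genes called under TMM, 52.4% were higher in CKO, and of those called under library size alone 69.9% were. Under that scaling 56 of the 57 genes were higher and 0 were lower. Summed markers of other cells moved too. These lists are short, and over all genes tested 23.8% were higher in CKO and 21.6% were lower. For 9 macrophage genes the sum was 5308 to 5966 CPM in CKO and 6468 to 6678 CPM in FLOX, with Csf1r, Cd68 and Mertk lower, Fcgr1 higher and 5 not called. The 5 monocyte genes summed to 74.5 to 91.8 CPM in CKO and 32.5 to 41.6 CPM in FLOX, and the 3 tested were all higher. The 11 neutrophil and granulocyte precursor genes found in the files summed to 7.03 to 13.1 CPM in CKO and 3.19 to 4.77 CPM in FLOX, where 4 of 5 tested were higher and Elane was at 0 in every library. For 6 progenitor genes the sum was 38.1 to 45.6 CPM in CKO and 21.2 to 29.5 CPM in FLOX, with Cd34 higher and Kit and Sox4 lower. The part of these cells in the rise of the mitotic genes was not tested. The 6 stromal and endothelial genes summed to 12.4 to 15.04 CPM in CKO and 8.13 to 9.68 CPM in FLOX, and 4 dendritic cell genes to 2.43 to 2.90 CPM in CKO and 2.04 to 2.34 CPM in FLOX. T and NK cell genes were at 0 in all libraries, and erythroid, B cell and mast cell sums did not pass 1.01 CPM in any.

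**Figure D2:**
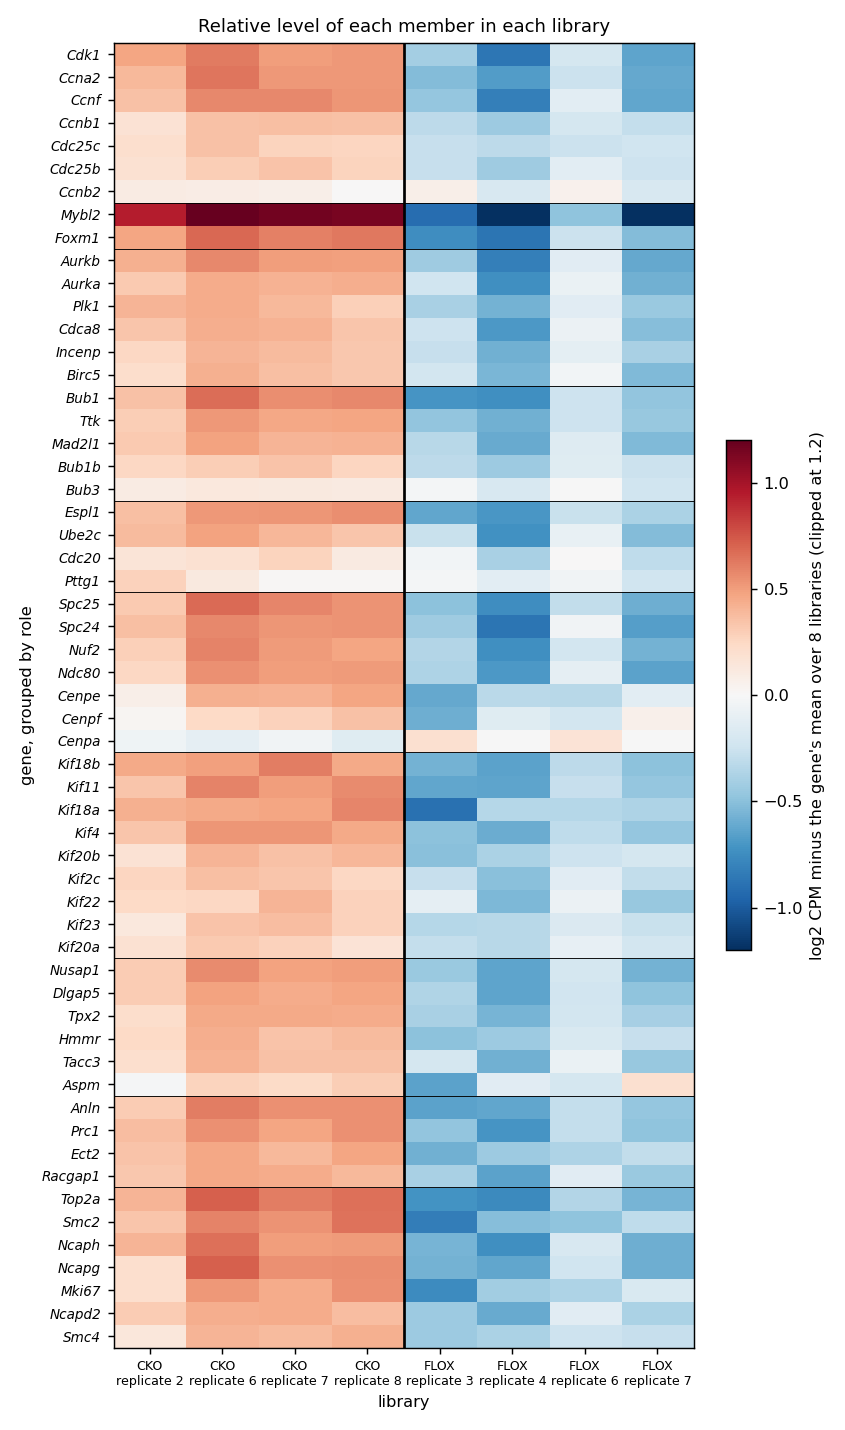
Level of each gene in each library as log2 CPM minus the gene's mean over the 8 libraries (colour, clipped at 1.2 on either side), with CKO libraries left of the thick line, FLOX libraries right of it and genes grouped by role. The CKO side is above the mean for nearly every gene; Cenpa is turned round, Ccnb2, Bub3 and Pttg1 are pale, and FLOX replicate 7 is above the mean for Cenpf and Aspm.

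Promoters of the genes are shown next, because a shared promoter element is what the group is known for and because the genes moved together. RefSeq promoters on GRCm38.p6, from 250 bases before to 50 bases after the transcript start, were found for 47 of the 57 genes. The cell cycle homology region was searched as TTTGAA or TTCGAA, the CCAAT box as CCAAT and the E2F core as the letters TTCCCGC, the letters TTCGCGC, the letters TTGCCGC or the letters TTGGCGC, each on both strands, and matches of different motifs were allowed to overlap. Capitals mark matches to the first of these and to CCAAT, in either orientation. The first 3 promoters belong to genes that rose and hold both elements, the next pair to genes with both elements that did not rise, and the last to the gene with the largest fold, which holds neither.
Cdk1, chr10:69352863-69353162, minus strand: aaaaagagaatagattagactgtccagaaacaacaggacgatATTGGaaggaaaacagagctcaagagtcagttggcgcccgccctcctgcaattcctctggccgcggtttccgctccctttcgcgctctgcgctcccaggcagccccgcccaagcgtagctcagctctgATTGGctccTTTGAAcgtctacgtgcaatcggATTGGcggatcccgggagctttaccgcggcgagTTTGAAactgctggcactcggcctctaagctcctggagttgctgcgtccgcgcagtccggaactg
Top2a, chr11:99024140-99024439, minus strand: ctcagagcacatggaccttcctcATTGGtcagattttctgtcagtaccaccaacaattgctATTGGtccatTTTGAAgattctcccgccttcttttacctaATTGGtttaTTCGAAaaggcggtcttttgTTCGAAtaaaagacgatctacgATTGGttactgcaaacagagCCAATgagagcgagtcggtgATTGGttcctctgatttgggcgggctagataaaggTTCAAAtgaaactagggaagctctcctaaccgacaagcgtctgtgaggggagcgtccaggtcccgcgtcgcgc
Mki67, chr7:135716330-135716629, minus strand: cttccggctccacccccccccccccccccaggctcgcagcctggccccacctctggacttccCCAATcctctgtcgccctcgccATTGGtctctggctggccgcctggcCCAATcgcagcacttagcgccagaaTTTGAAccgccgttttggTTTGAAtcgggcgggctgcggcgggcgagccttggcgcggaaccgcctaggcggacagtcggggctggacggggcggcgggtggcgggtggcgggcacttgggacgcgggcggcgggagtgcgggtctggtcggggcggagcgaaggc
Ccnb2, chr9:70421505-70421804, minus strand: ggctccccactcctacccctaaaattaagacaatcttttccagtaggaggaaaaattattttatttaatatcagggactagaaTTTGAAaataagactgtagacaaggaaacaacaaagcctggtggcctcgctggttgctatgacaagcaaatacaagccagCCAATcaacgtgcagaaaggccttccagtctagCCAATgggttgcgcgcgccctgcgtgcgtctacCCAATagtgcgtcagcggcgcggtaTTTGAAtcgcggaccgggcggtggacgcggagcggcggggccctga
Cenpa, chr5:30666636-30666935, plus strand: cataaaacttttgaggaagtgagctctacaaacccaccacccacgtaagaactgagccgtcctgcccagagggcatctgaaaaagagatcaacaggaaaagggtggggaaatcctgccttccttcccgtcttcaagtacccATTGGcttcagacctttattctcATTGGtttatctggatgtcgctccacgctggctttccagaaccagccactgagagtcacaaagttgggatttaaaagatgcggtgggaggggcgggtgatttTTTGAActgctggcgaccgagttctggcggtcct
Mybl2, chr2:163054385-163054684, plus strand: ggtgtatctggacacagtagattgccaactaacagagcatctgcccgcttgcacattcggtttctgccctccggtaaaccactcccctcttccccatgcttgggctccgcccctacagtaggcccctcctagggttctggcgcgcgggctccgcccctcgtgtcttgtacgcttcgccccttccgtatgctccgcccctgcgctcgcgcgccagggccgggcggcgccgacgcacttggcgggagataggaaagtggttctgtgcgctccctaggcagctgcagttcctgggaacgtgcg

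The cell cycle homology letters stood in 36 of the 47 promoters (76.6%), against 13.4% of the 8848 promoters of other tested genes and 19.3% of all 26978 other promoters of that length. CCAAT stood in 34 of them (72.3%), against 39.0% of other tested genes, and 23 (48.9%) held it at least 2 times, against 15.3%. Both motifs together were found in 32 promoters (68.1%), against 5.56%. The E2F letters were found in 10 (21.3%), against 17.7%. Only the spellings given above were searched, so other forms of the E2F core are not in these shares. Matches to the cell cycle homology region sat close to the start: their first base lay at a median of -5 bases from it in the group, against -143 bases in other tested genes, and 75.5% of the 49 matches lay within 100 bases before the start or after it, against 34.5%. Top2a held 4 such matches and 6 CCAAT boxes, Cdk1 held 2 and 3, and Ccnb2, whose level hardly differed, held 2 and 3 as well. The size of the change did not follow the cell cycle homology letters: the median log2 fold change was 0.79 in the 36 genes with a match and 0.80 in the 11 without. It was 0.78 in the 34 genes with CCAAT and 0.89 in the 13 without. Genes with both elements had 0.79 and the 9 with neither had 0.92. For the E2F letters it was 0.84 in the 10 genes with a match and 0.78 in the 37 without. These are matches of letters in a window and show no binding.

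**Figure D3:**
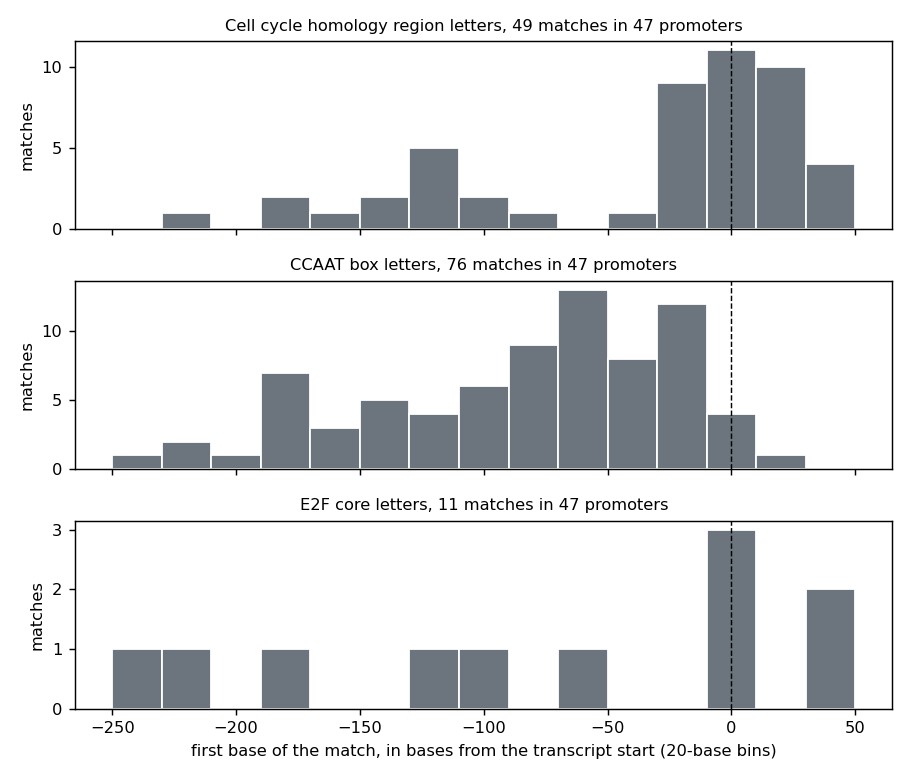
Number of matches (vertical axis) by distance of the match's first base from the transcript start in bases (horizontal axis, bins of 20 bases, start at the dashed line) for the 3 motifs in the 47 promoters. The 49 cell cycle homology matches pile up at the start itself, the 76 CCAAT matches mostly before it, and the 11 E2F matches are spread.

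The engine of mitotic entry was higher in CKO in 6 of 7 genes, with a median log2 fold change of 0.62. Cdk1 (ENSMUSG00000019942.13), the mitotic kinase itself, had 127, 141, 129.5 and 131 CPM in CKO replicates 2, 6, 7 and 8, against 68.9, 50.4, 79.3 and 59.3 CPM in FLOX replicates 3, 4, 6 and 7. All CKO libraries were high and close together, FLOX replicate 4 was lowest, and the gap between the groups was wider than the spread of either. Its log2 fold change was 1.03 (SE 0.11, adjusted p = 1.51e-05), and its promoter is the first of those shown above. Cdc25b, a phosphatase that activates CDK1, had 160.3, 174, 179 and 169.5 CPM in CKO, against 117, 105, 129.5 and 119 CPM in FLOX (log2 fold change 0.54, SE 0.070, adjusted p = 5.65e-05). Its groups did not overlap either. Cyclin A2 (Ccna2) and cyclin F (Ccnf) rose like Cdk1, by 1.02 and 0.99 on the log2 scale, and the phosphatase gene Cdc25c rose by 0.54.

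The B-type cyclins parted. Ccnb1, which encodes the main mitotic cyclin, had 156, 177, 178 and 176 CPM in CKO replicates 2, 6, 7 and 8, against 112, 103, 119.5 and 114 CPM in FLOX replicates 3, 4, 6 and 7. CKO replicate 2 was below the other 3 CKO libraries and still above every FLOX library, and the log2 fold change was 0.62 (SE 0.066, adjusted p = 1.19e-05). Ccnb2, the Golgi-associated cyclin B2, had 119, 118, 117 and 111 CPM in CKO, against 116, 97.1, 114 and 97.1 CPM in FLOX. FLOX replicates 3 and 6 lay inside the CKO range and FLOX replicates 4 and 7 below it, and the fold of 1.09 (95% interval 0.967 to 1.23) missed the threshold (adjusted p = 0.170). Within a library Ccnb1 stood at 1.48 ± 0.12 times Ccnb2 in CKO and at 1.06 ± 0.086 times Ccnb2 in FLOX by read counts, and the 4 CKO ratios were all above the 4 FLOX ratios. That ratio is a description of the libraries, and no p was computed for it.

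The pair of transcription factors that act late in the cycle were both higher, with the largest median of any role, 1.66. Mybl2 (B-MYB, which joins MuvB in S phase) had 30.9, 38.6, 36.0 and 35.6 CPM in CKO replicates 2, 6, 7 and 8, against 8.55, 4.46, 11.6 and 6.81 CPM in FLOX replicates 3, 4, 6 and 7. FLOX replicate 6 was highest of its group and reached less than the lowest CKO library, replicate 2. The log2 fold change was 2.14 (SE 0.20, adjusted p = 1.30e-05), a fold of 4.41 with a 95% interval of 3.12 to 6.24. The smallest count of any of the 57 genes, 59 read pairs, belongs to it, and Mybl2 is the only one with a count under 100. Foxm1, whose protein takes over from B-MYB in G2, had 103, 119, 112 and 115 CPM in CKO, against 44.3, 40.5, 62.1 and 51.7 CPM in FLOX (log2 fold change 1.18, SE 0.11, adjusted p = 5.39e-06). FLOX replicate 6 was again the highest FLOX library. Foxm1 counts were 3.19 ± 0.11 times those of Mybl2 in CKO and 6.80 ± 1.86 times in FLOX, with no overlap.

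All 6 genes of the mitotic kinases and the chromosomal passenger complex were higher, with a median of 0.75. Incenp, the scaffold of the passenger complex, had 240.0, 268, 263 and 252 CPM in CKO, against 166, 135, 187 and 154 CPM in FLOX (log2 fold change 0.67, SE 0.087, adjusted p = 5.67e-05). Its kinase subunit Aurkb had 90.9, 100.3, 95.5 and 94.9 CPM in CKO, against 50.1, 38.2, 61.3 and 44.1 CPM in FLOX (log2 fold change 0.97, SE 0.12, adjusted p = 3.10e-05). In both genes FLOX replicate 6 was highest and FLOX replicate 4 lowest, with no overlap. The other subunits, survivin (Birc5) and borealin (Cdca8), rose by 0.65 and 0.74, the Polo kinase gene Plk1 by 0.76 and the centrosomal kinase gene Aurka by 0.78. Aurka stood at 0.691 ± 0.015 times Aurkb in CKO and 0.788 ± 0.038 times in FLOX, with the ranges apart.

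The spindle assembly checkpoint was higher in all 5 genes, but unevenly. Bub1, a kinase that loads the checkpoint onto kinetochores, had 104, 129.8, 120.0 and 121 CPM in CKO, against 49.8, 48.8, 68.5 and 58.4 CPM in FLOX (log2 fold change 1.07, SE 0.11, adjusted p = 6.53e-06). Bub3, which binds BUB1 and BUBR1 and is also used outside mitosis, had 123, 125, 124 and 123 CPM in CKO, against 112, 99.8, 114 and 96.9 CPM in FLOX. The SD was 0.901 CPM in CKO and 8.63 CPM in FLOX with no overlap, and the log2 fold change of 0.22 (SE 0.064, adjusted p = 0.0127) was the smallest of any gene called higher. Ttk (the kinase MPS1), Mad2l1 (MAD2) and Bub1b (BUBR1) lay between, at 0.87, 0.80 and 0.57. Bub1 counts were 0.906 ± 0.073 of those of Bub1b in CKO and 0.636 ± 0.054 in FLOX, with no overlap.

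Anaphase control held 3 genes that were higher and 1 that was not called. Ube2c, the ubiquitin-conjugating enzyme of the anaphase-promoting complex, had 135, 145, 136 and 129.99 CPM in CKO, against 86.0, 62.5, 97.5 and 72.3 CPM in FLOX (log2 fold change 0.77, SE 0.11, adjusted p = 0.000146). Espl1, the gene of separase, which cuts cohesin, had 54.9, 61.5, 61.5 and 63.1 CPM in CKO, against 27.7, 26.4, 35.5 and 32.8 CPM in FLOX (log2 fold change 0.97, SE 0.093, adjusted p = 5.29e-06). In each the lowest CKO library was well above the highest FLOX library. Cdc20, an activator of the complex, rose by only 0.35 (SE 0.088, adjusted p = 0.00627). Pttg1, the gene of the separase inhibitor securin, had 23.9, 21.5, 19.97 and 20.01 CPM in CKO, against 19.4, 18.2, 19.2 and 16.7 CPM in FLOX. The 4 CKO libraries were all above the 4 FLOX libraries, but by so little that the fold of 1.16 (95% interval 1.00 to 1.34) missed the threshold (adjusted p = 0.0595). Leaving out CKO replicate 7 or CKO replicate 8 brought Pttg1 past it (adjusted p = 0.0418 and 0.0438, range over the alternatives 0.00793 to 0.291).

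Centromere and kinetochore genes included the single fall. Cenpa (ENSMUSG00000029177.9, chr5:30666777-30674830 on GRCm38), the histone H3 variant that marks the centromere, had 107, 102, 107 and 99.3 CPM in CKO replicates 2, 6, 7 and 8, against 126, 109.8, 123 and 109.5 CPM in FLOX replicates 3, 4, 6 and 7. FLOX replicates 4 and 7 stood only just above the highest CKO libraries, and FLOX replicates 3 and 6 stood well above. The log2 fold change was -0.17 (SE 0.064, adjusted p = 0.0436), or 0.887-fold with a 95% interval of 0.795 to 0.989. The call did not last: leaving out any of the 4 CKO libraries, FLOX replicate 3 or FLOX replicate 6 ended it, and it was lost in 12 of 18 alternative fits (adjusted p 0.0248 to 0.386), though the value stayed below 0 in all of them (-0.21 to -0.07). The other 6 genes of this role were higher. Cenpe, a kinetochore motor, had 145, 185, 184 and 191 CPM in CKO, against 90.2, 109.9, 109.6 and 126 CPM in FLOX (log2 fold change 0.69, SE 0.11, adjusted p = 0.000195). Spc25, a subunit of the NDC80 complex that grips microtubules, had 64.4, 83.4, 77.7 and 75.5 CPM in CKO, against 36.8, 31.0, 42.4 and 34.6 CPM in FLOX (log2 fold change 1.05, SE 0.10, adjusted p = 5.18e-06). CKO replicate 2 was the lowest CKO library in both, and neither gene's groups overlapped. The other subunits of that complex rose to a like degree, Spc24 by 0.96, Nuf2 by 0.93 and Ndc80 by 0.89. Cenpf, a large kinetochore protein, had 99.6 to 125 CPM in CKO and 65.3 to 103 CPM in FLOX, so its ranges overlapped, and its log2 fold change was 0.43 (SE 0.12, adjusted p = 0.0104).

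Kinesins of the spindle were higher in 9 of 9 genes, between 0.47 (Kif20a) and 1.00 (Kif18b) with a median of 0.67. Kif11, the motor that pushes the spindle poles apart, had 206, 248, 233 and 243 CPM in CKO, against 107, 106, 136 and 119 CPM in FLOX (log2 fold change 0.99, SE 0.087, adjusted p = 2.91e-06). Kif18b, which shortens astral microtubules, had 43.6, 44.6, 48.6 and 43.5 CPM in CKO, against 21.4, 20.3, 25.5 and 22.5 CPM in FLOX (log2 fold change 1.00, SE 0.081, adjusted p = 1.69e-06). In both genes every CKO library was far above every FLOX library. Next came Kif18a at 0.95 and the chromokinesin gene Kif4 at 0.92, whose adjusted p of 1.63e-06 was the smallest of the group. The motors of the central spindle changed less, Kif20b by 0.67, Kif23 by 0.56 and Kif20a by 0.47, as did the microtubule depolymerase gene Kif2c at 0.60 and the chromokinesin gene Kif22 at 0.57. Kif20a shares 29.3% of its exon length with Cdc23 on the opposite strand, and read pairs there cannot be assigned without strand.

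Spindle assembly factors were higher in 5 of 6 genes. Tpx2, which activates Aurora A on spindle microtubules, had 171, 202, 203 and 202 CPM in CKO, against 113, 101, 127 and 112 CPM in FLOX (log2 fold change 0.78, SE 0.080, adjusted p = 8.79e-06). Nusap1, a microtubule bundler, had 123, 147, 139 and 141 CPM in CKO, against 72.9, 64.1, 86.0 and 67.0 CPM in FLOX (log2 fold change 0.92, SE 0.092, adjusted p = 7.00e-06). CKO replicate 2 was lowest in its group for each, and above all of FLOX. Dlgap5 (HURP), Hmmr and Tacc3, which stabilise spindle microtubules, rose by 0.85, 0.69 and 0.64. Aspm, a protein of the spindle poles, had 78.0, 94.9, 92.5 and 96.8 CPM in CKO, against 50.5, 71.8, 68.1 and 89.8 CPM in FLOX. FLOX replicate 7 alone reached into the CKO range. With all libraries the log2 fold change was 0.37 (SE 0.14, adjusted p = 0.0549), and without FLOX replicate 7 it was 0.51 (adjusted p = 0.00365, range over the alternatives 0.00365 to 0.126). Leaving out FLOX replicate 3 gave 0.24, and leaving out CKO replicate 2 also brought Aspm past the threshold (adjusted p = 0.0410).

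The 4 cytokinesis genes were all higher, with a median of 0.90. Prc1, which bundles the antiparallel microtubules of the midzone, had 189.5, 213, 203 and 213 CPM in CKO, against 105, 89.7, 120.2 and 105 CPM in FLOX (log2 fold change 0.96, SE 0.083, adjusted p = 2.43e-06). Anln, the gene of the ring scaffold anillin, had 158, 196, 187 and 188 CPM in CKO, against 82.4, 83.1, 105 and 93.2 CPM in FLOX (log2 fold change 1.00, SE 0.090, adjusted p = 3.32e-06). Every FLOX library stayed far below the lowest CKO library, replicate 2, in these genes. Ect2, whose protein activates RhoA at the cleavage plane, and Racgap1, a centralspindlin subunit, rose by 0.83 and 0.80.

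Chromosome condensation had the highest median apart from the transcription factors, 1.01, and all 7 genes of it were higher, 4 of them more than 2-fold. Top2a, the topoisomerase that untangles sister chromatids, had 648, 803, 749.8 and 776 CPM in CKO replicates 2, 6, 7 and 8, against 298, 289, 384 and 332 CPM in FLOX replicates 3, 4, 6 and 7. The lowest CKO library, replicate 2, was far above the highest FLOX library, replicate 6, and the log2 fold change was 1.19 (SE 0.096, adjusted p = 1.69e-06). Mki67, the antigen Ki-67 that coats mitotic chromosomes and marks cycling cells, had 983, 1223, 1165 and 1252 CPM in CKO, against 505, 640.3, 662 and 754 CPM in FLOX (log2 fold change 0.85, SE 0.11, adjusted p = 6.47e-05). FLOX replicate 3, not replicate 4, was its lowest library, and FLOX replicate 7 its highest. The condensin I genes Smc2, Ncaph, Ncapg, Ncapd2 and Smc4 rose by 1.06, 1.02, 1.01, 0.77 and 0.68. Smc2 and Smc4 encode partners in the same ring, and Smc2 counts were 0.675 ± 0.013 of those of Smc4 in CKO and 0.518 ± 0.056 in FLOX, with no overlap.

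Levels of different genes were compared per length, as FPKM from CPM and the merged exon length of GENCODE M21. That length joins the exons of every annotated transcript of a gene, so it can exceed that of the transcript made. Ranks between genes depend on it. By this measure Mki67 was the most abundant of the 57 genes, at 114.9 ± 12.0 FPKM in CKO and 63.6 ± 10.2 FPKM in FLOX. Kif18a was the least abundant, at 2.21 ± 0.11 FPKM in CKO and 1.14 ± 0.19 FPKM in FLOX. Ccnb2, one of the uncalled genes, ranked second by the mean over all libraries, with 75.8 ± 2.28 FPKM in CKO and 69.3 ± 6.84 FPKM in FLOX, ahead of Top2a with 82.6 ± 7.51 FPKM in CKO and 36.1 ± 4.75 FPKM in FLOX. By group mean Top2a was thus above Ccnb2 in CKO and below it in FLOX. In CKO replicate 2, though, Top2a (71.9 FPKM) was below Ccnb2 (77.5 FPKM). Mybl2 ranked 55 of 57, with 7.61 ± 0.69 FPKM in CKO and 1.69 ± 0.64 FPKM in FLOX. Across the genes, level and log2 fold change were weakly related (Spearman rho -0.16 over 57 genes, which share their libraries and are not independent).

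A pair of libraries set the edges of the groups in most genes. CKO replicate 2, the shallowest library, was the lowest CKO library in 48 of the 57 genes, against 33.5% of all genes tested, and FLOX replicate 6, the deepest, was the highest FLOX library in 46 of the 57, against 21.1% of all genes. CKO replicate 6 was highest in 36 genes and FLOX replicate 4 lowest in 41. Without both CKO replicate 2 and FLOX replicate 6, an alternative chosen after seeing the data, 53 genes were still higher, 0 were lower, and the median log2 fold change was 0.95. Spread was smaller in CKO: the median coefficient of variation over the genes was 6.04% in CKO and 13.4% in FLOX, and it was smaller in CKO for 52 of the 57. The coefficient of variation was taken for the 57 only. By another measure, over all genes tested, differences between pairs of libraries also reached higher in FLOX. Their chi-square per degree of freedom, which grows with counts, was 4.51 to 27.8 in FLOX and 2.45 to 9.63 in CKO. The FLOX pairs of replicates 3 and 6 (6.45) and of replicates 4 and 7 (4.51) lay within the CKO range.

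Some genes, several of them long, departed from that pattern of edges in FLOX. Over the 21 genes above 6 kb, FLOX replicate 6 still lay highest within FLOX. Its mean log2 deviation from the group was 0.18, against 0.04 in FLOX replicate 7. CKO replicate 2 was lowest within CKO for these genes, at -0.16. Cdc25c, Cenpe, Cenpf, Kif20b, Aspm, Ect2, Smc2 and Mki67 had FLOX replicate 7 as their highest FLOX library, and their median exon length was 7.79 kb. The 12 genes with FLOX replicate 3 as their lowest had a median of 8.26 kb. Exon length was also set against the deviation of a library from its group mean. Over the 57 genes Spearman rho was -0.47 in CKO replicate 2 and 0.63 in CKO replicate 8, with CKO replicates 6 and 7 at 0.07 and 0.06. In FLOX replicates 3, 6, 4 and 7 it was -0.55, -0.26, 0.36 and 0.53. Over 11081 genes with a length the relation was weaker in CKO replicates 2 and 8, at -0.23 and 0.30. It was of like size in FLOX replicates 3, 6, 4 and 7, at -0.55, -0.34, 0.39 and 0.51. Shares of read pairs in no gene differed between libraries as well, 6.52% to 8.51% in CKO, against 9.41% and 9.60% in FLOX replicates 4 and 7 and 7.67% and 7.02% in FLOX replicates 3 and 6. What part this has in the values of long genes was not tested. Log2 fold changes between the genotypes were similar across length classes, with a median of 0.77 in 8 genes under 3 kb, 0.76 in 28 genes of 3 to 6 kb and 0.85 in 21 genes over 6 kb.

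**Figure D4:**
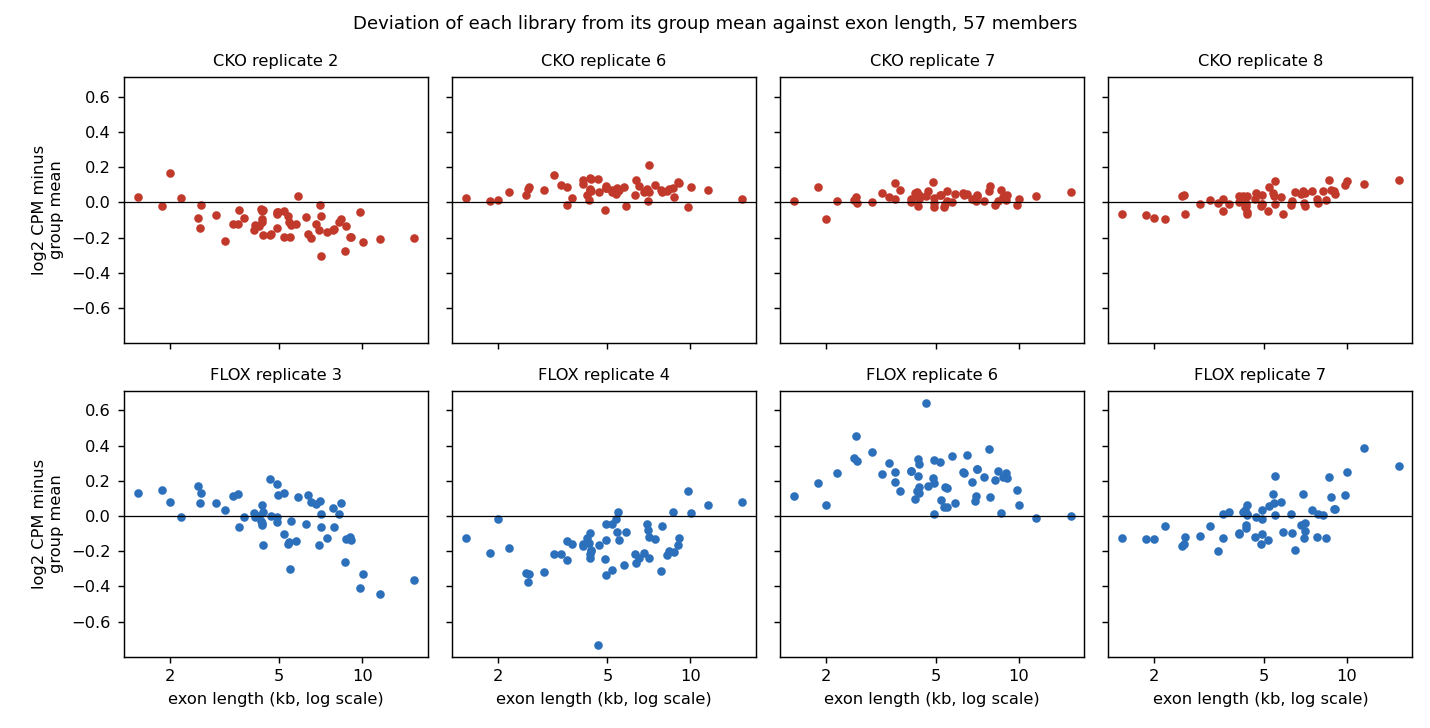
Deviation of each library from its group mean (log2 CPM, vertical axis) against merged exon length in kb (log axis) for the 57 genes. Each library has a panel, CKO above and FLOX below. Points slope down in FLOX replicate 3 (rho -0.55) and up in FLOX replicate 7 (rho 0.53), and FLOX replicate 6 lies above 0 for nearly all genes.

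Genes that act around the 57 were taken from 12 lists of 222 genes, of which 221 were tested. Of those 221, 165 were higher in CKO and 10 were lower, with a median log2 fold change of 0.62, against 23.8% and 21.6% of all genes. Lists of structural mitotic genes were higher in most of their genes. Other centromere and kinetochore genes were higher in 32 of 33 (median 0.84), among them Kntc1 at 1.40, Trip13 at 1.27 and Cenpi at 1.11, and Mad2l1bp was not called. Other mitotic effectors were higher in 12 of 12 (median 0.83), with Pbk at 1.45, Cdca2 at 1.04 and Melk at 0.92. Other spindle and centrosome genes were higher in 30 of 38 (median 0.51), with the centriole genes Stil at 1.32 and Plk4 at 1.23 and the kinesin gene Kif15 at 1.14. Of the 10 tubulin and stathmin genes 7 were higher (median 0.65), among them Tubb5 and Tubb4b at 0.89 each and Tuba1c at 0.71. The nuclear envelope was higher in 6 of 8 genes (median 0.61), with the lamin genes Lmnb1 at 1.28 and Lmnb2 at 1.03 and Tmpo at 0.94. Condensin II, SMC5/6 and chromatin genes were higher in 6 of 9 (median 0.45), with Ncapd3 at 0.97, H2afx at 0.98 and Hmgb2 at 0.80.

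Of 20 genes of the DREAM and MuvB complex and the E2F and RB families, 14 were higher and 0 were lower (1 lower without FLOX replicate 3 or 6; median 0.48), with the repressor E2f8 at 1.54, the pocket protein gene Rbl1 at 1.02 and Tfdp1 at 0.93. Of 21 tested regulators of the G2/M gate, 12 were higher and 5 were lower (median 0.40). Fbxo5, the inhibitor of the anaphase-promoting complex, was at 1.46 and Mastl, the Greatwall kinase, at 1.18. Cdkn1a, whose product p21 inhibits CDKs and thus acts against the engine, averaged 407 ± 31.8 CPM in CKO and 195 ± 32.6 CPM in FLOX (log2 fold change 1.06, SE 0.11, adjusted p = 7.89e-06). Its 4 CKO libraries, 379 to 436 CPM, all lay above the 4 FLOX libraries, 154 to 229 CPM. Wee1, the kinase that holds CDK1 inactive, averaged 38.5 ± 2.22 CPM in CKO and 24.9 ± 2.14 CPM in FLOX (log2 fold change 0.62, adjusted p = 4.23e-05). The 5 lower genes, named after their values were seen, were Gadd45b at -0.98, Gadd45a at -0.77, Ccng2 at -0.41, Cdk7 at -0.25 and Ensa at -0.20.

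Of 16 genes of the anaphase-promoting complex 4 were higher and 3 were lower, shares close to the 23.8% and 21.6% of all genes, and the median was 0.01. Higher were Ube2s at 0.66, Cdc23 at 0.60, the activator gene Fzr1 at 0.45 (54.1 ± 2.18 CPM in CKO, against 39.5 ± 5.05 CPM in FLOX, adjusted p = 0.00100) and Anapc5 at 0.44. Cdc23 is the gene that shares exons with Kif20a. Lower, and named after their values were seen, were Anapc13 at -0.34, Anapc15 at -0.27 and Cdc26 at -0.24. The count of lower genes of the complex was 1 without CKO replicate 6, 7 or 8 or FLOX replicate 3 or 6, and 5 without FLOX replicate 4. Of 15 genes of cohesin and its regulators 9 were higher, among them the cell-cycle-timed Esco2 at 1.43, Cdca5 (sororin) at 1.07 and Sgol2a (shugoshin) at 1.06, and Mau2 was lower at -0.32 (2 lower genes without FLOX replicate 6, 3 without FLOX replicate 3). Of 12 other cytokinesis genes 6 were higher, with Iqgap3 at 1.03, Cep55 at 0.64 and Myh9 at 0.52, and Chmp4b was lower at -0.21, a call that was lost without CKO replicate 6, 7 or 8 or FLOX replicate 3 or 6.

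Genes of G1/S and DNA replication, which precede the 57 in the cycle, were higher in 27 of 27, with a median of 1.25 and 21 of them more than 2-fold, and Cdc6 was at 2.26, Mcm2 at 1.62 and Mcm4 at 1.26. Their summed level was 2561, 2946, 2746 and 2815 CPM in CKO replicates 2, 6, 7 and 8, against 1283, 1095, 1493 and 1137 CPM in FLOX replicates 3, 4, 6 and 7. Set over that sum, the sum of the 57 genes came to 3.00, 3.03, 3.14 and 3.09 in CKO, against 3.64, 4.09, 3.69 and 4.41 in FLOX. Both sums were higher in every CKO library, while their ratio was lower in every CKO library, at 3.07 ± 0.065 in CKO and 3.96 ± 0.36 in FLOX (SD, n = 4 each). On the log2 scale, where each gene weighs the same, the 57 genes stood above the G1/S genes by 0.73 ± 0.024 in CKO and by 1.28 ± 0.11 in FLOX. These ratios describe the libraries and carry no p.

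**Figure D5:**
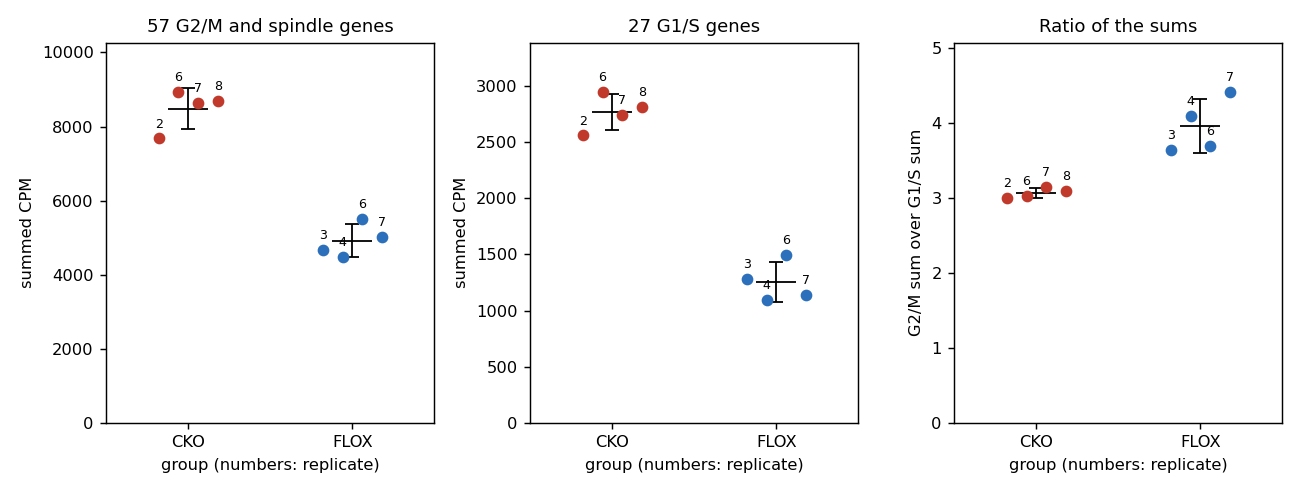
Summed CPM of the 57 G2/M and spindle genes (left), summed CPM of 27 G1/S genes (middle) and the first over the second (right) in each library, numbered by replicate, with the group mean and SD (n = 4 each). CKO libraries lie above FLOX libraries in both sums and below them in the ratio.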

How the data were processed

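RNA of 8 libraries (4 CKO, 4 FLOX) was sequenced as paired ends; HISAT2 2.0.5, mm10 and HTSeq are named for alignment and counting, per the submitters' processing notes. For HTSeq's version, its annotation and its strandedness, the answer is not given in the sources used here. The authors deposited raw whole-number counts per gene symbol in 1 file per library; their series table holds the same values, though 27 names in it were altered to dates, and 0 of its columns lacked a sample. Read pairs in HTSeq's unassigned classes (28.3% to 33.7%) were left out of library sizes.

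In R 4.3.3, edgeR 4.0.16 kept genes by filterByExpr (minimum count 10, minimum total 15), scaled by TMM and tested CKO against FLOX with the robust quasi-likelihood F test (6 residual degrees of freedom), with Benjamini-Hochberg adjustment over 11519 genes and calls at 0.05. The standard error is the log2 fold change over the square root of F, and intervals are at 95%. The biological coefficient of variation was 8.77%. Libraries of a group differed by more than sampling noise, and all 8 were used. Such a difference does not show that they come from separate mice. Chi-square over its degrees of freedom was 2.45 to 9.63 in CKO pairs and 4.51 to 27.8 in FLOX pairs, genes at 0 in both libraries left out. FLOX replicates 3 and 6 (6.45) and FLOX replicates 4 and 7 (4.51) were closer to each other than the FLOX pairs across (15.6 to 27.8). CPM are TMM-scaled. Counts of 59 to 18895 lie behind the 57 genes, and p-values rest on the spread between libraries.

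The 57 genes and the other lists were chosen with earlier results of these data known. Values per library are given for the most abundant gene and the largest change of each role, for genes not called or lower, and for a few always given; up to 3 genes of smallest p are named per surrounding list. Exon lengths and positions are from GENCODE M21 (GRCm38, the assembly of mm10), which had a length for 96.3% of tested genes. Exons of 11 of the 57 genes overlap exons of another tested gene on the opposite strand, and without strand those reads cannot be told apart. Promoters matched RefSeq by symbol; 3 genes had 2 entries and the first was used. Alternatives were RLE, upper-quartile or no scaling factors, other filters, DESeq2 1.42.0, limma-voom (limma 3.58.1), removal of the 20 most abundant genes, a replicate block, each library left out, and a stricter call rule.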

Additional observations from a re-analysis of the deposited data

Results flagged for a closer look

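Within a group of 4 libraries, 1 library stood far from the others (its gap to the nearest, over the group's range, was above Dixon's 95% value) in 6 of 118 groups of values tested, and chance alone flags about 1 in 20. CKO replicate 2 was the low one for Ccnb1, with 156 CPM against 176 to 178 CPM in the other CKO libraries. It was also low for Cenpe, with 145 CPM against 184 to 191 CPM, for Tpx2, with 171 CPM against 202 to 203 CPM, and for Smc4, with 295 CPM against 348 to 359 CPM. FLOX replicate 3 was low for Kif18a, with 8.34 CPM against 12.0 to 12.3 CPM in the other FLOX libraries. FLOX replicate 6 was high for Ncapg, with 45.2 CPM against 34.5 to 35.9 CPM in the other FLOX libraries. All 6 genes kept their call in every alternative fit, those without these libraries included.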

How the results depend on the processing

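Of the 57 genes, 52 kept their call in all 18 alternative fits, and no value of any of them changed sign. Cenpa lost its fall in 12 fits, Aspm was called higher in 6 and Pttg1 in 4, Ccnb2 was called higher with library size alone (0.23, adjusted p = 0.0203, range over the alternatives 0.0203 to 0.383), and Bub3 lost its call with the replicate block (0.24, adjusted p = 0.110, range 0.00137 to 0.110). The number of the 57 called lower was thus 0 with upper-quartile factors, library size alone, no low count filter, the 20 most abundant genes removed, the replicate block, and CKO replicate 2 and FLOX replicate 6 left out together, which also put the median at 0.95. Leaving out 1 library gave 53 to 54 of the 57 higher, 0 to 1 lower and a median of 0.73 to 0.89. Over all genes it gave 1782 to 2491 lower, and over the surrounding lists 6 to 12 lower (6 without CKO replicate 6 or CKO replicate 7).

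Library size alone left 1556 of all genes and 5 of the surrounding genes lower. A log2 fold change above 1 as a further condition left 673 of all genes (538 higher, 135 lower), 12 of the 57 higher and 0 lower, and 55 surrounding genes higher and 0 lower; this follows from the stricter rule. The replicate numbers 6 and 7 occur in both groups, and what the numbers mean is not given in the sources used here. Deviations of same-numbered libraries, over all genes tested, correlated at 0.14 for replicate 6 and -0.07 for replicate 7. With so few shared numbers this cannot exclude a shared batch. Among the 57 genes, replicate 6 was the highest library for 36 in CKO and for 46 in FLOX. The numbers were not taken as pairs in the main fit. In a fit with the number as a block, only replicates 6 and 7 of each group inform the genotype difference, and few degrees of freedom are left. That fit called 3503 of all genes, 1518 of them lower, with 52 of the 57 higher, 0 lower, and 6 surrounding genes lower. Otherwise the cause was not tested. DESeq2 and limma-voom each called 54 of the 57 higher and 1 lower. The share of promoters with the cell cycle homology letters was 72.3% with TTTGAA alone and 72.3% from 100 bases before the start. Depth limits Mybl2, Kif18a and Spc24 most, with fewest counts of 59, 119 and 119.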
